A study of Homo sapiens with 47 samples.

Results

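The regions described here are stretches of open chromatin that were listed in control 451Lu melanoma cells and were missing both from vemurafenib-resistant 451Lu cells and from 451Lu cells engineered to carry a p150 hairpin together with c-JUN and c-FOS. ATAC-seq peaks of 8 libraries were merged wherever they overlapped, on chromosomes 1 to 22, which gave 122350 union regions. A region counted as a shared loss when all 4 parental and vector_NT libraries called it and none of the 4 resistant and shp150_AP1 libraries did. This gave 810 regions, 0.662% of the union and 1.29% of the 62557 regions that all 4 control libraries called. The regions were thus chosen by the peak calls of these 8 libraries, which are described below without a test. A union over all 20 ATAC-seq libraries of the series holds 203319 regions.

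The series profiled 451Lu and WM983B, 2 human melanoma cell lines, and its title names adaptive resistance to BRAF inhibitor therapy as the subject. The resistant groups are lines made resistant to vemurafenib, and the parental groups are the lines they came from. In 451Lu the shp150_AP1 group over-expresses c-JUN and c-FOS, which are components of AP-1, and carries a short hairpin RNA against p150, and its control, vector_NT, carries a vector and an NT control. The AP1 group (c-JUN and c-FOS alone) has vector as its control, and the shp150 group (hairpin alone) has NT. There were 2 libraries per group for ATAC-seq and for H3K9me3, and 1 per group with a list used here for H3K27ac. The labels state neither drug exposure at harvest, nor clones, nor hairpin sequence, and levels of p150, c-JUN and c-FOS were not analysed here. Separate cultures for the replicates are not mentioned either, and differences among libraries of a group may be technical.

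BRAF is a kinase of the MAP kinase pathway that is often mutated in melanoma, and vemurafenib inhibits its mutant form. AP-1 is a transcription factor dimer, of which c-JUN and c-FOS are the classic subunits, and MAP kinase signalling is among the signals that raise its activity. p150 is the name of the large subunit of CAF-1, the chaperone that deposits histones H3 and H4 on newly replicated DNA. ATAC-seq maps where the transposase Tn5 can reach the DNA. Acetylation of histone H3 at lysine 27 (H3K27ac) marks active promoters and enhancers, and trimethylation at lysine 9 (H3K9me3) marks heterochromatin.

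The files are lists of peaks, each with a score that is the authors' own value and whose definition is not given in the sources used here. They hold no read counts, so depth is unknown, and a missing call means only that no peak was listed. The lists of the changed cells were not short, with 87509 and 91970 peaks in resistant and 82100 and 86032 in shp150_AP1 cells, against 80326 and 80841 in parental and 82303 and 77417 in vector_NT cells. The single-change lists were shorter, from 41829 peaks (shp150, replicate 2) to 55300 (vector, replicate 1). The 4 WM983B lists paired by replicate number and not by label: the bases covered in resistant and parental cells, shared as a part of those covered in either, were 0.579 for replicates 1 and 0.61 for replicates 2, and 0.507 to 0.511 for every other pair. WM983B results are therefore given both by label and by number. The genome build of the files is hg19, and coordinates are given in it, since gene annotation and sequence of that build were not used here.

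The shared losses were weak peaks in the control cells and lay in narrow merged regions. Their median score was 7.46 and 7.63 in the parental libraries and 7.29 and 7.12 in the vector_NT libraries. Over the regions that all 4 control libraries called, the 4 medians lay between 16.8 and 19.5. The smallest of a region's 4 control scores had a median of 5.12 in the shared losses (quartiles 4.1 and 6.54, range 2.02 to 24.4), against 14.2 over all regions called in the 4 controls. Their median width was 433 bp, against 720 bp, and together they covered 0.37 Mb. These are widths of merged regions, and by the rule no resistant or shp150_AP1 peak could widen a shared loss. Where 1, 2, 3 or 4 of those libraries called a control region, the median width was 464, 498, 525 and 765 bp. A wider region is more easily touched by a call of 1 bp, and the part of width in the shares below was not tested.

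Shared losses became rarer as the control score grew. They made up 7.85% of the regions with a smallest control score below 4, 5.02% at 4 to 6, 2.27% at 6 to 8, 0.825% at 8 to 12 and 0.0366% at 12 and above. In numbers, 181, 370, 162, 84 and 13 shared losses fell in these 5 classes. The control scores of a single region were uneven, since the highest was 1.89 times the smallest at the median region. The mean score was higher in parental cells at 450 regions and higher in vector_NT cells at 360.

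**Figure D1:**
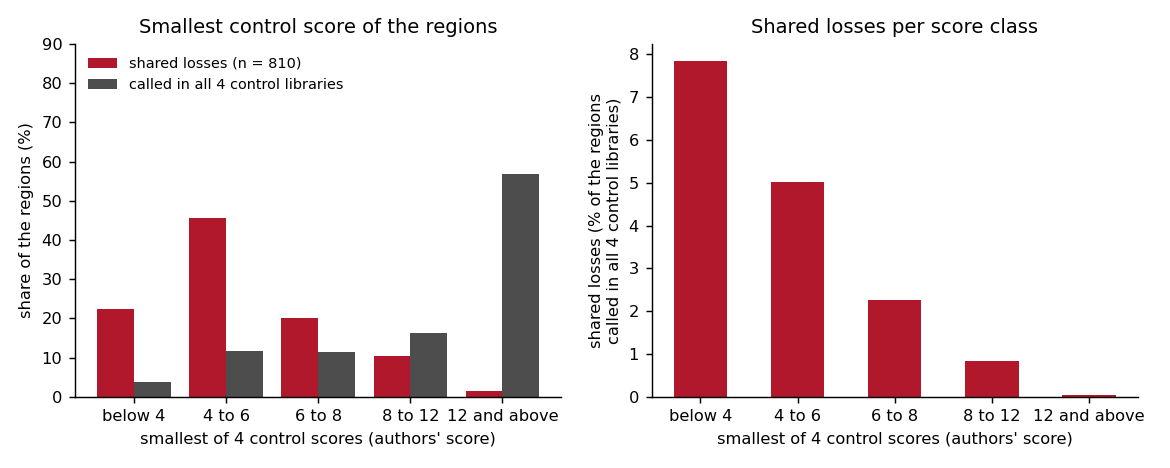
Smallest of the 4 control ATAC-seq scores, in 5 classes. Left, share of the 810 shared losses (red) and of the regions called in all 4 control libraries (grey) in each class, in percent; right, shared losses as a percentage of those regions within each class. Shared losses concentrate below a score of 8, and their part falls to 0.0366% in the highest class.

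The regions without a call in resistant cells and those without a call in shp150_AP1 cells were partly the same. Of the regions called in all 4 controls, 2259 (3.61%) were called in neither resistant library and 1952 (3.12%) in neither shp150_AP1 library, counts that the rule itself used. The 810 shared losses are 35.9% of the resistant list and 41.5% of the shp150_AP1 list. This overlap was not compared within classes of control score, so how far weak peaks account for it was not tested. A further 771 regions were missing from both resistant libraries but called in both shp150_AP1 libraries, and 652 were missing from both shp150_AP1 libraries but called in both resistant libraries.  A single call separated 1168 regions from the shared losses, by resistant replicate 1 in 194 cases, resistant replicate 2 in 296, shp150_AP1 replicate 1 in 242 and shp150_AP1 replicate 2 in 436. The median score of that single call was between 5.61 and 5.81. Without shp150_AP1 replicate 2 the rule would find 1246 regions, and without vector_NT replicate 2 it would find 1231.

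Regions on either side of the rule show how near the limit lies. The lowest shared loss, chr7:142818070-142818418, scored 2.02 in vector_NT replicate 1 and 4.1 to 4.65 in the other 3 control libraries. All 4 WM983B libraries called it, with scores of 12.8 and 21.6 in resistant cells and 10.4 and 18.2 in parental cells. The next lowest were chr6:99534149-99534689 and chr1:19343433-19343902, each with a smallest score of 2.03, and neither was called in any of the 12 other ATAC-seq libraries. The highest region just outside was chr4:10659591-10660212, which scored 15.6 to 31.9 in the controls and was listed in resistant replicate 2 alone, at 3.67. The following ones were chr11:105804453-105804845 and chr4:190469772-190470372, each called in shp150_AP1 replicate 1 alone, at 4.6 and 5.8.

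The highest-scoring shared loss stood clear of the others. It lay at chr2:32500788-32501218 (431 bp) and scored 25.7 and 24.4 in parental cells and 26.3 and 24.8 in vector_NT cells. Among the single-change cells it was listed in AP1 replicate 2 at 7.47, against 10.7 and 15 in the vector libraries, and in NT replicate 1 at 5.81, while neither shp150 library listed it. In WM983B it was listed in replicate 1 of resistant cells at 4.09 and of parental cells at 4.51, and in no replicate 2.

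The second, chr12:117133056-117133530, scored 16.7 and 22.8 in parental and 24.2 and 19.4 in vector_NT cells. Both AP1 libraries listed it, at 4.19 and 7, while no vector, shp150 or NT library did. The third, chr9:112318280-112318648, scored 15.8 and 17.5 in parental and 19.2 and 17.8 in vector_NT cells. It was listed in both AP1 libraries (6.03 and 13.3), both vector libraries (14.7 and 13.3) and both NT libraries (5.67 and 5.99), and again in neither shp150 library. At each of these 3 loci at least 1 AP1 library and neither shp150 library listed a peak. They differed in the calls of the vector and NT libraries.

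Further down, the ranks 4 to 6 were chr12:76874385-76874971, chr2:3176960-3177362 and chr2:136899762-136900214, with smallest control scores of 15.3, 14.8 and 14.5. Each was called in 2 or 3 of the 12 other ATAC-seq libraries. Rank 7, chr1:106013111-106013739, went the other way, since it was called in all 12. Its scores were 4.05 and 5.81 in AP1 and 7.01 and 8.56 in vector cells, 10 and 13.1 in shp150 and 15.2 and 13.8 in NT cells. In WM983B they were 19.6 and 4.34 in resistant and 14.3 and 7.67 in parental cells. So each library with the hairpin alone or with c-JUN and c-FOS alone listed this region, and the 4 resistant and shp150_AP1 libraries did not. The only other shared loss called in all 12 was chr1:60069882-60070356, with a smallest control score of 5.59.

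At the opposite end, 4 of the 20 highest shared losses were called in no other ATAC-seq library. These were chr4:88909254-88909807, chr3:137849674-137850068, chr5:167828946-167829410 and chr12:31876520-31877024. The chromosome 3 region scored 21.2 and 24.5 in parental cells and 13.5 and 12 in vector_NT cells. The chromosome 12 region scored 18.2 and 19 in parental cells and 11.7 and 16.1 in vector_NT cells. Its parental H3K27ac peak scored 8.24, and the resistant library had none. Others divided by cell line. Rank 18, chr11:16424564-16425160, was called in all 4 WM983B libraries, at 15.3 and 8.1 in resistant and 11.2 and 3.75 in parental cells, and in no single-change 451Lu library. Rank 10, chr10:82208107-82208474, scored 5.11 and 6.59 in shp150 cells, against 14.4 and 13 in NT cells. Of the 20, shp150 replicates 1 and 2 called 3 and 2, against 8 and 6 in the NT libraries. AP1 replicates 1 and 2 called 5 and 9 of them, against 9 and 7 in the vector libraries. Of all regions called in the 4 controls with a smallest score of 12 and above, shp150 called 78.3% on average and NT 87.1%. For AP1 and vector these means were 92.9% and 94.6%.

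**Figure D2:**
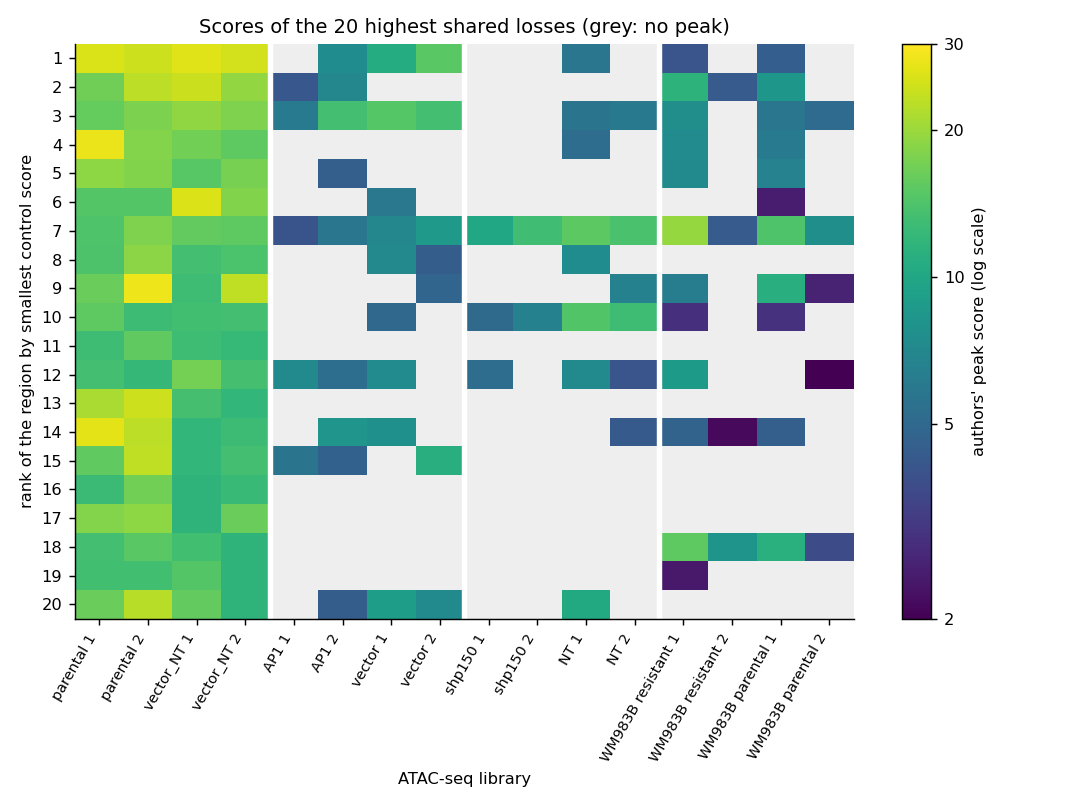
Authors' peak scores (colour, log scale) of the 20 shared losses with the highest smallest control score, 1 row per region in rank order and 1 column per ATAC-seq library, with grey where no peak was listed. The first 4 columns are the control libraries of the rule; the 4 resistant and shp150_AP1 libraries, in which the rule allows no call, are left out. Both shp150 columns are nearly empty, with 3 and 2 regions listed, and the WM983B replicates 1 hold 12 and 11 regions against 4 and 5 in the replicates 2. Of all regions called in the 4 controls at scores of 12 and above, shp150 called 78.3% on average. There the WM983B replicates 1 called 92.1% and the replicates 2 88.5%.

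The single-change cells did not take part in the rule, and they called few of the shared losses. In AP1 cells 100 (12.3%) and 137 (16.9%) of the 810 regions were called, against 156 (19.3%) and 137 (16.9%) in vector cells. In shp150 cells 60 (7.41%) and 61 (7.53%) were called, against 135 (16.7%) and 115 (14.2%) in NT cells. Both shp150 libraries lay below both NT libraries, whereas AP1 and vector overlapped.

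The means were 14.6% ± 3.23 in AP1 and 18.1% ± 1.66 in vector cells (SD, n = 2 each), a difference of -3.46 percentage points that is within the combined SD of 3.63. It was -1.17 points without AP1 replicate 1, -5.74 without AP1 replicate 2, -2.28 without vector replicate 1 and -1.54 with single-change lists of equal length. For the hairpin the means were 7.47% ± 0.0873 in shp150 cells and 15.4% ± 1.75 in NT cells (SD, n = 2 each), a difference of -7.96 points, larger than the combined SD of 1.75. With 2 libraries against 2, the smallest exact two-sided permutation p is 0.333, so an exact permutation test of these libraries cannot pass 0.05. Over all regions called in the 4 controls, the means were 72.4% in AP1 and 75.3% in vector cells, and 56.4% in shp150 and 68% in NT cells. The ratio of AP1 to vector was 0.809 for the shared losses and 0.961 over all these regions. In the 5 score classes from low to high it was 1.13, 0.85, 0.582, 0.704 and 0.833, against 0.884, 0.885, 0.896, 0.929 and 0.982. For regions lost in resistant cells only and in shp150_AP1 cells only, the AP1 to vector ratio was 1.04 and 0.77. The ratio of shp150 to NT was 0.484 for the shared losses and 0.829 over all regions called in the 4 controls. For regions lost in resistant cells only it was 0.669. With 0.451, regions lost in shp150_AP1 cells only lay below the shared losses, so a low ratio was not particular to them. By score class the shp150 to NT ratio of the shared losses was 0.415, 0.472, 0.632, 0.469 and 0.417. Over all regions called in the 4 controls it was 0.612, 0.611, 0.614, 0.67 and 0.9.

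The length of the shp150 lists moves with this result. When every single-change list was cut to its 41829 best-scoring peaks, 59 and 61 shared losses were called in shp150 cells (7.28% and 7.53%), against 85 and 66 in NT cells (10.5% and 8.15%). The difference then was -1.91 points, and the shp150 libraries still lay below both NT libraries. Over all regions called in the 4 controls the equal lists gave 56.6% and 55.7% in shp150, against 58.2% and 57.5% in NT cells. The score of the last peak kept was 3.03 and 2.02 in shp150, against 6.47 and 5.34 in NT cells, so equal length is not equal threshold. Whether list length makes up the rest of the difference was not tested.

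Shared losses that a single-change control did call were often missing beside it. Of the 82 called in both vector libraries, 23 were called in neither AP1 library (28%, exact 95% binomial interval 18.7 to 39.1), against 3.11% of all regions called in the 4 controls. Without AP1 replicate 2, which loosens the count to a single library, the share was 51.2%. Of the 72 called in both NT libraries, 30 were called in neither shp150 library (41.7%, interval 30.2 to 53.9), against 8.73%. For regions lost in resistant cells only, these shares were 10.2% for AP1 and 26.7% for shp150. For regions lost in shp150_AP1 cells only, they were 20.9% and 32.1%. Intervals cover counting error only. Low-scoring regions that stayed in all 8 libraries of the rule had higher shares than the background too. In the 3 score classes below 8 these were 20.6%, 16.6% and 12.7% for AP1 and 24.6%, 27.2% and 27.4% for shp150. In the same classes the shared losses had 44.4%, 16.2% and 50% for AP1 (of 9, 37 and 14 regions). For shp150 they had 75%, 35.9% and 41.7% (of 8, 39 and 12 regions). At scores of 4 to 6 the AP1 share thus lay beside that of the regions that stayed. With lists of equal length the shares were 26.5% for AP1 (9 of 34, against 3.52% of all regions called in the 4 controls) and 28.6% for shp150 (10 of 35, against 4.28%).

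In the other direction, 12 of 599 shared losses that neither vector library called were called in both AP1 libraries (2%, background 6.86%). For shp150, 3 of 632 that neither NT library called were called in both (0.475%, background 1.8%). The background here again is all regions called in the 4 controls. Only 1 of the 32 shared losses called in all 4 vector and NT libraries was missing from all 4 AP1 and shp150 libraries, where the background is 0.336%. It lay at chr6:103450178-103450417 and scored 3.83 and 8.4 in vector and 8.54 and 6.35 in NT cells. Its scores were 10.5 and 6.09 in parental and 6.62 and 7.38 in vector_NT cells. WM983B listed it in replicate 1 of resistant cells (4.76) and of parental cells (2.49).

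**Figure D3:**
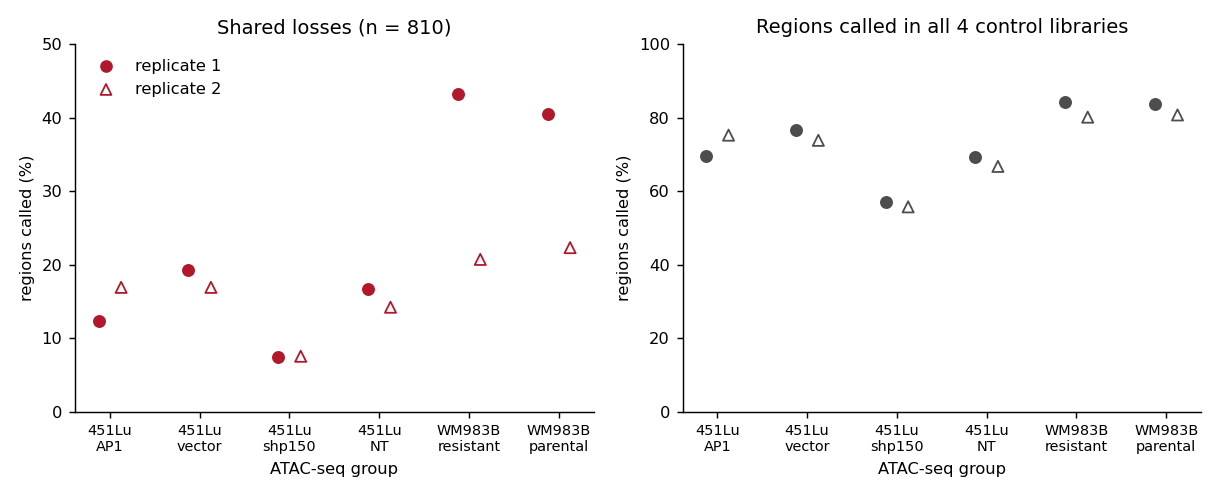
Percentage of regions called in each of the 12 ATAC-seq libraries outside the rule, for the 810 shared losses (left, axis to 50%) and for all regions called in the 4 control libraries (right, axis to 100%). Each point is 1 library, filled for replicate 1 and open for replicate 2; shared losses are called in 7.41% to 43.2%, and WM983B separates by replicate number.

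Many shared losses were seen nowhere else. In all, 246 (30.4%) were called in none of the 12 other libraries, against 2.93% of all regions called in the 4 controls, and 2 were called in all 12, against 38.3%. In the 8 single-change libraries alone, 468 (57.8%) were called in none, against 9.2%. The shared losses called most often in the vector and NT libraries were those of the highest class, which holds 13. The mean share in vector cells was 10.8%, 18%, 17%, 32.1% and 46.2% in the 5 score classes from low to high, and in NT cells it was 11.3%, 17.2%, 11.7%, 19% and 46.2%.

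In WM983B, which the rule did not use, the shared losses divided by replicate number. By label, 350 (43.2%) and 168 (20.7%) were called in resistant cells, against 328 (40.5%) and 181 (22.3%) in parental cells. The mean difference between resistant and parental was 0.556 points, far below the combined SD of 20.4, which holds the gap between the replicate numbers. Paired by number, resistant minus parental was 2.72 points in the replicates 1 and -1.6 in the replicates 2, opposite in sign. By number, the mean was 21.5% in the replicates 2, against 41.9% in the replicates 1, a ratio of 0.515 and a difference of -20.3 points. Where at least 50% of a region had to be covered, the difference was -6.71 points. Over all regions called in the 4 controls the means were 80.4% and 83.9%, a ratio of 0.959. The lists of the replicates 2 were the longer ones, with 141352 and 144329 peaks, against 129057 and 126086 in the replicates 1.

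The same split was present in each score class. The ratio of replicates 2 to replicates 1 was 0.612, 0.492, 0.539, 0.394 and 0.333 for shared losses, in order of rising control score. For regions called in all 8 libraries of the rule it stayed between 0.965 and 1.04. With the 4 lists cut to 126086 peaks, 144 and 145 shared losses were called in the replicates 2 (resistant, parental), against 346 and 328 in the replicates 1. Among regions missing in only 1 of the contrasts, the ratio by number was 0.734 for those lost in resistant cells and 0.814 for those lost in shp150_AP1 cells. What the replicate number stands for is not stated in the labels, and this grouping was chosen after the data were seen.

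Individual regions followed the number as well. Both replicates 2 but neither replicate 1 called 6 shared losses, and both replicates 1 but neither replicate 2 called 103. Over all regions called in the 4 controls the counts were 843 and 2209. By label, 7 were called only in both resistant libraries and 3 only in both parental libraries. As shares, 1.55% of the 453 shared losses without a parental call were called in both resistant libraries (background 4.17%). Of the 152 called in both parental libraries, 1.97% were called in neither resistant library (background 0.578%). All 4 libraries called 105 shared losses (13%, against 71.9% of all regions called in the 4 controls) and none called 377 (46.5%, against 9.15%).

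**Figure D4:**
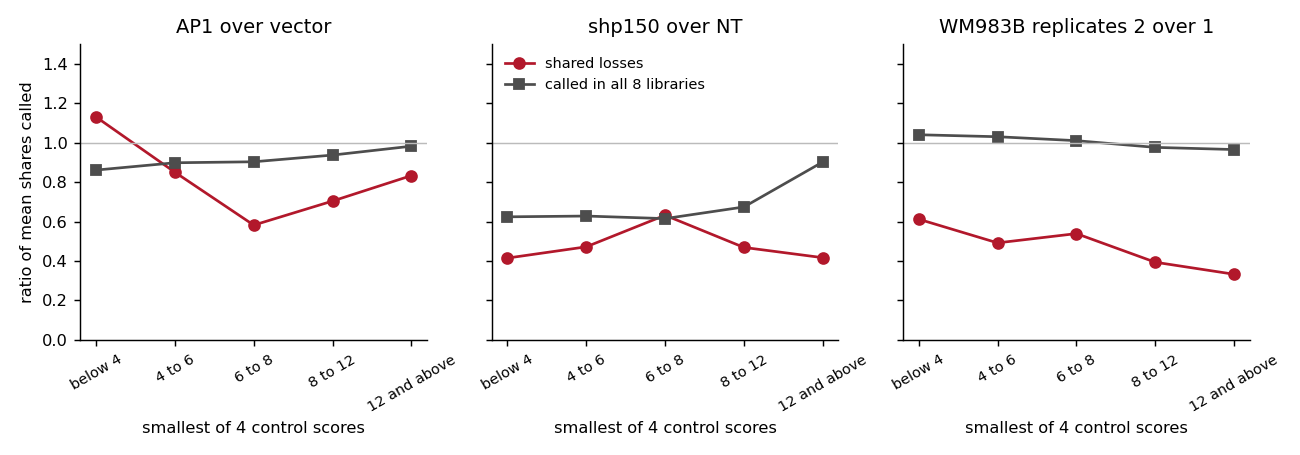
Ratio of mean shares called, by class of the smallest control score, for shared losses (red circles) and regions called in all 8 libraries of the rule (grey squares), in AP1 over vector, shp150 over NT and WM983B replicates 2 over replicates 1. Each mean is over 2 libraries, the grey line marks a ratio of 1, and the highest class holds 13 shared losses; the 2 curves lie apart in every class for WM983B, at 0.333 to 0.612 and 0.965 to 1.04, and cross or meet in the other panels.

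H3K27ac peaks overlapped a smaller share of the shared losses than of all regions called in the 4 controls, which have higher ATAC-seq scores. In 451Lu, 16 (1.98%, exact 95% interval 1.13 to 3.19) overlapped a peak of the resistant library, against 32 (3.95%, interval 2.72 to 5.53) for the parental library. Over all regions called in the 4 controls the shares were 23.6% and 21.4%. The gap was smaller in the 2 lowest score classes. At control scores below 4, 2.76% of the shared losses had a resistant and 2.76% a parental peak, against 6.07% and 3.56% of all regions of that class called in the 4 controls. At 4 to 6 the shares were 1.89% and 4.59% in the shared losses, against 8.1% and 5.07%. There were 7 shared losses with a peak in resistant cells only (background 7.67%) and 23 with a peak in parental cells only (background 5.43%). The list of resistant cells was the longer, with 50948 peaks against 31807, and at 31807 peaks each it overlapped 12 shared losses. With 1 library a group this compares libraries, not conditions, and it has no test.

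The resistant count was also the lower within 1 kb and in WM983B. Within 1 kb of a 451Lu peak lay 54 shared losses (6.67%) in the resistant and 97 (12%) in the parental library, of which 27 were resistant only (background 12.4%) and 70 parental only (background 7.18%). In WM983B, 9 (1.11%) overlapped a resistant and 43 (5.31%) a parental peak, with 3 resistant only (background 4.34%) and 37 parental only (background 7.44%). Within 1 kb the WM983B counts were 56 and 147, with 14 resistant only (background 5.4%) and 105 parental only (background 12.2%). Here the resistant list was the shorter, with 35477 peaks against 49682. Over all regions called in the 4 controls, the resistant and parental shares within 1 kb were 34.6% and 29.4% in 451Lu. In WM983B all these regions had the lower resistant share too, at 20.5% and 23.6% for an overlap and 29.4% and 36.3% within 1 kb. Resistant overlaps were also the fewer in regions missing in only 1 of the contrasts. Of the regions lost in resistant cells only, 20 (2.59%) had a resistant and 27 (3.5%) a parental peak in 451Lu. In WM983B the counts were 17 (2.2%) and 38 (4.93%). Both resistant libraries called the regions lost in shp150_AP1 cells only. Of these, 28 (4.29%) had a resistant and 42 (6.44%) a parental peak in 451Lu, and 26 (3.99%) and 61 (9.36%) in WM983B. For the shared losses the difference was -1.98 percentage points in 451Lu and -4.2 in WM983B for an overlap, and it came to -0.457 and -0.639 points where at least 50% of a region had to be covered.

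**Figure D5:**
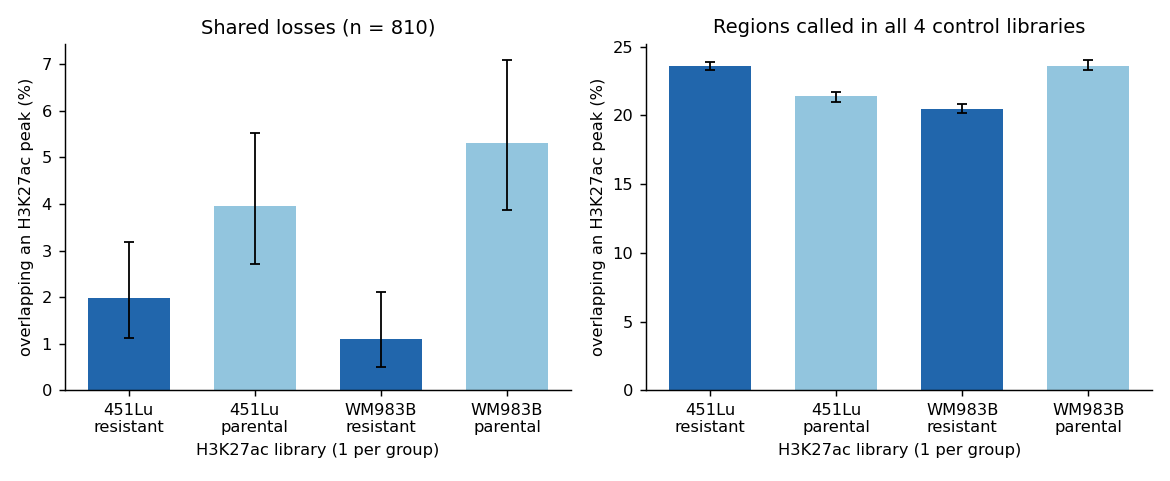
Percentage of regions overlapping an H3K27ac peak in resistant (dark) and parental (light) cells of each line, for the 810 shared losses (left) and all regions called in the 4 control libraries (right, a larger axis). Bars are shares of 1 library each with exact 95% binomial intervals; shared losses reach 1.98% and 3.95% in 451Lu and 1.11% and 5.31% in WM983B.

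The regions with the highest parental H3K27ac scores kept the mark in resistant cells in part. At chr8:23210032-23210370 the H3K27ac score was 125 in the resistant and 105 in the parental 451Lu library, and 196 and 262 in those of WM983B. Its ATAC-seq scores were low, at 4.3 to 6.81 in the controls, although all 4 WM983B libraries called it. At chr1:33826509-33827499 the H3K27ac score was 29 in resistant and 40.1 in parental 451Lu cells, and 11 of the 12 other ATAC-seq libraries called the region. At chr1:22263065-22264132 it was 56 in resistant and 27.4 in parental cells. These loci lost a listed ATAC-seq peak beside an H3K27ac peak that was still listed.

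Elsewhere the listed mark was weaker or missing in the resistant library. At chr21:44198140-44198558 the H3K27ac score was 3.56 in resistant and 35.4 in parental 451Lu cells, and in WM983B only the parental library had a peak, at 22.9. At chr22:36200374-36200824 it was 23.7 and 35.3, and at chr6:20205945-20206476 it was 6.92 and 19.7, in resistant and parental 451Lu cells. In WM983B both had a peak in the parental library alone, at 28.5 and 31.1.

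A group of 4 had no H3K27ac peak in resistant 451Lu cells. At chr4:127665221-127665938, chr19:43061665-43062255, chr6:17860716-17861058 and chr7:25191592-25192238 the parental score was 18.1, 16.9, 15.4 and 15.3. The chromosome 6 region of these had a WM983B parental score of 35.3 and no WM983B resistant peak. The other 3 had no H3K27ac peak in WM983B. The chromosome 4 region was called in all 8 single-change ATAC-seq libraries. Outside these 10, resistant and parental scores were 31.5 and 7.86 at chr1:158991800-158992210 and 27.7 and 9.75 at chr3:48470484-48471028. They were 7.22 and 7.62 at chr20:16856529-16857119. At chr4:58020960-58021638 only the resistant library had a peak, at 14.3. In all, 9 shared losses had a peak in both 451Lu libraries, 7 in the resistant one only and 23 in the parental one only.

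The marked regions differed from the rest in some other readouts and not in others. Of the 32 with parental 451Lu H3K27ac, 21 (65.6%) were called in at least 1 single-change library, against 321 of 778 unmarked ones (41.3%). For a call in any WM983B ATAC-seq library the shares were 53.1% and 53.5%. Parental WM983B cells had H3K27ac at 17 of the 32 (53.1%) and at 26 of the 778 (3.34%). Over all regions called in the 4 controls, marked or not, that share was 23.6%. Those regions were not split by 451Lu H3K27ac here, so whether these differences are particular to shared losses was not tested. The median smallest control score was 4.56 in the marked and 5.14 in the unmarked regions, and the median width 480 and 433 bp.

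The WM983B regions split by number were set beside the H3K27ac lists of that line. Within 1 kb of a parental WM983B H3K27ac peak lay 30 of the 103 regions called only in both replicates 1 (29.1%), 45 of the 105 called in all 4 libraries (42.9%) and 34 of the 377 called in none (9.02%). For the resistant library the counts were 3 (2.91%), 21 (20%) and 14 (3.71%). Of the 6 called only in both replicates 2, 3 lay within 1 kb of a resistant and 2 of a parental peak. Of all regions called in the 4 controls, 29.4% lay within 1 kb of a resistant and 36.3% of a parental WM983B peak. Both WM983B H3K27ac lists carry the number 2, and whether numbers correspond between assays is not stated.

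Islands of H3K9me3 touched 157 shared losses (19.4%) in at least 1 of 8 libraries, against 15.7% of all regions called in the 4 controls. H3K9me3 islands of resistant cells covered part of 69 (8.52%) and 63 (7.78%) shared losses, against 76 (9.38%) and 67 (8.27%) for parental cells. For shp150_AP1 the counts were 54 (6.67%) and 68 (8.4%), against 79 (9.75%) and 89 (11%) for vector_NT. Resistant and parental overlapped, and both shp150_AP1 libraries lay below both vector_NT libraries.

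The means were 8.15% ± 0.524 in resistant and 8.83% ± 0.786 in parental cells (SD, n = 2 each), within the combined SD of 0.944. Paired by replicate number, the differences were -0.864 and -0.494 points. Among all regions called in the 4 controls the means were 7.59% in resistant and 6.69% in parental cells, the opposite order. In the engineered cells the means were 7.53% ± 1.22 with shp150_AP1 and 10.4% ± 0.873 with vector_NT (SD, n = 2 each), a difference of -2.84 points beyond the combined SD of 1.5. It was -1.51 points where at least 50% of a region had to be covered and -1.63 with ATAC-seq scores of at least 5, both near that SD. Over all regions called in the 4 controls the means were 5.91% in shp150_AP1 and 6.97% in vector_NT cells. In the 5 score classes from low to high, the difference in the shared losses was -3.31, -5.27, 2.16, -0.595 and -3.85 points. It thus changed sign at scores of 6 to 8. Over all these regions it was -1.67, -1.47, -1.17, -1.13 and -0.885. The islands covered 268 and 317 Mb in shp150_AP1, against 394 and 376 Mb in vector_NT cells, and the part of this coverage in the result was not tested. The series lists no input sample for shp150_AP1 replicate 1.

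Few shared losses changed their island in both replicates. Islands were present in both resistant and in neither parental library at 10 shared losses (1.23%, background 1.32%), and the reverse held at 13 (1.6%, background 1.08%). They were present in both shp150_AP1 and neither vector_NT library at 4 (0.494%, background 0.435%), and the reverse held at 16 (1.98%, background 1.12%). No island of any of the 8 libraries touched 653 shared losses (80.6%), against 84.3% of all regions called in the 4 controls, and 22 (2.72%) lay in islands of all 8. Among the 20 highest shared losses, 5 touched an island. The one at chr20:31839958-31840464 did so in all 8 libraries, with a fold of ChIP over input (the authors' deposited value) of 1.08 to 1.34. It scored 14.1 and 18.8 in parental and 13.3 and 13.9 in vector_NT ATAC-seq.

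The shared losses were spread over every chromosome from 1 to 22. Their part of the regions called in all 4 controls was between 0.786% on chromosome 20 (16 regions) and 2.24% on chromosome 18 (27 regions). The median distance to the nearest other shared loss was 965 kb, against 1077 kb from the other regions called in all 4 controls. Within 100 kb of another shared loss lay 8.64% of them, against 7.65% of those other regions. These 70 formed 32 pairs and 2 groups of 3.

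The first group spans chr2:218751444-218769211 (17.8 kb). Its smallest control scores were 5.01, 2.95 and 9.84, and 1 region called in all 8 libraries of the rule lies inside the span. The middle region was called in no other ATAC-seq library, while each outer one was called in 6 of 12. The second group spans chr11:73779230-73852705 (73.5 kb), with smallest control scores of 10.2, 4.94 and 6.92 and 4 regions called in all 8 inside it. Listed H3K9me3 islands from 7, 8 and 7 of the 8 libraries touched these 3. Their fold of ChIP over input, again as deposited, was between 0.635 and 1.24. Only the highest of these folds was above 1, so by this value the other islands were not enriched over input.

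Shared losses lay about as far from open chromatin that stayed as other control regions did. The median distance from a shared loss to a region called in all 8 libraries was 12.1 kb, against 12.8 kb over all regions called in the 4 controls. Regions gained in both contrasts lay within 1 kb of 1 shared loss (0.123%), against 0.112% of all regions called in the 4 controls.

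A table of genomic intervals that the authors deposited, on a grid of 20 kb, holds 1784 intervals on these chromosomes. Its assay and the direction of its log2 fold change are not stated. In the authors' deposited table, 138 shared losses (17%) fell in an interval, against 18.1% of all regions called in the 4 controls. Intervals with an adjusted p under 0.05 in the authors' deposited table held 37 shared losses (4.57%, against 6.57%) where the fold change was positive and 85 (10.5%, against 8.47%) where it was negative.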

How the data were processed

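The 47 samples include 32 with a list used here: 20 ATAC-seq, 4 H3K27ac and 8 H3K9me3 libraries. Named in the submitters' processing notes are the build hg19 and MACS2, SICER, Bowtie2, deepTools, Picard and STAR 2.5.3, each without a role. Which of them made a list, how duplicates were handled and whether ATAC-seq reads were shifted is not given in those notes. The deposited ATAC-seq and H3K27ac lists give 1 score per peak, set by the authors and used here to describe, rank and filter peaks within a list. The deposited H3K9me3 lists give each island a false discovery rate (an adjusted p-value) and a fold enrichment over input, both the authors' values. Every listed island was used, whatever its fold. The series lists no input sample for H3K9me3 shp150_AP1 replicate 1, and the labels do not state which input its folds used. The authors' deposited interval table holds a mean signal, a log2 fold change, its standard error, a test score and p-values in columns named as DESeq2 names them.

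Peaks were merged where they shared at least 1 bp, and a library called a region if its peaks covered 1 bp of it or more. Regions were then counted per library, with exact (Clopper-Pearson) 95% binomial intervals where 1 share is given; intervals cover counting error only. No model was fitted to the calls, and an exact permutation test of 2 libraries against 2 cannot pass 0.05. A difference was set beside the combined SD, the square root of the summed variances of both groups. For named regions the rule was the 20 highest by smallest control score, the 10 highest by parental 451Lu H3K27ac score, those called in all vector and NT and in no AP1 or shp150 library, groups of 3 or more within 100 kb, and 3 on either side of the limit. The members and lists were chosen with earlier results of these data known. Gene neighbourhoods and sequence motifs that had been planned are not analysed here, as no hg19 genome was used here. Alternatives were another required cover, a score minimum, lists of equal length, another merging distance, another union, pairing by replicate number and leaving out each library. Merging and calling were tested on simulated lists with planted losses, all of which were recovered. Python 3.11.15, NumPy 2.4.6, SciPy 1.17.1 and Matplotlib 3.10.9 were used.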

Additional observations from a re-analysis of the deposited data

How the results depend on the processing

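Each of 11 results was recomputed under 13 to 24 alternatives. The differences beyond their spread all kept their sign. Of those within their spread, AP1 minus vector kept its sign in 19 of 19 alternatives. WM983B resistant minus parental kept it in 15 of 19 and resistant minus parental H3K9me3 in 16 of 19. The remaining results are a count and shares, which cannot change sign. The 24 belong to shp150_AP1 minus vector_NT H3K9me3. They include equal single-change lists and leaving out an AP1 or vector library, which cannot change its value of -2.84. WM983B resistant minus parental, within its spread of 20.4 points, lay between -10.7 and 11.8 with a library left out. The number of shared losses was 797 to 1096 under the other settings and 1004 to 1246 with each library of the rule left out. The difference AP1 minus vector, within its spread, was -1.54 points with equal lists and between -5.74 and -1.17 with a library left out. The difference shp150 minus NT was -9.89 points with scores of at least 5 and -1.91 with single-change lists of equal length. WM983B replicates 2 minus 1 gave -6.71 points with 50% cover, -12.7 with scores of at least 5 and -23.8 with equal lists, an alternative chosen after seeing the data. Resistant minus parental H3K27ac was -5.31 points in 451Lu and -11.2 in WM983B within 1 kb, and -0.457 in 451Lu and -0.639 in WM983B with 50% cover. With a library of the rule left out, the 451Lu difference was between -2.49 and -1.2 points, the value nearest 0 without vector_NT replicate 1. Resistant minus parental H3K9me3 was -1.73 points with islands of a false discovery rate of at most 0.01, and between -1.23 and 0.0951 with a library left out. shp150_AP1 minus vector_NT H3K9me3 was -1.51 points with 50% cover and -1.63 with scores of at least 5. The share lost in shp150 was 28.6% with equal lists and 37.2% to 57.8% with a library left out. The share lost in AP1 was 24.1% to 51.2% in the same way. Leaving out a library of a pair loosens that count by construction; the causes of the other shifts were not tested. With the replicate number as a block, an alternative chosen after seeing the data, the 5 mean differences between groups of 2 libraries keep their values by construction. The SD of the paired differences was 4.89 points around -3.46 for AP1 minus vector, 1.83 around -7.96 for shp150 minus NT and 3.06 around 0.556 for WM983B resistant minus parental. For H3K9me3 it was 0.262 around -0.679 in resistant minus parental, which is then beyond its spread, and 0.349 around -2.84 in shp150_AP1 minus vector_NT. The labels do not say whether numbers pair samples. Depth is unknown, so a missing call cannot be told apart from a peak just under the caller's limit, and scores of different lists need not share a scale.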
